A study of Homo sapiens with 4 samples.

Results

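The genes described here are 10 genes of the Notch pathway, read on arrays of MDA-MB-231 cells with and without knockdown (KD) of ELK3: the receptors NOTCH1, NOTCH2, NOTCH3 and NOTCH4, the ligands JAG1, JAG2, DLL1 and DLL3, and the target genes HES1 and HEY1. They were taken as every probe set (a group of short probes that reads 1 transcript region) whose annotation names exactly 1 of these genes, which gave 34 probe sets out of 49395 on the array, or 10 of 18132 genes. MDA-MB-231 is a human triple-negative breast cancer line, and ELK3 is an ETS-family transcription factor. Total RNA came from 2 control arrays, of cells with a stably integrated control shRNA, and from 2 ELK3 KD arrays, whose cells stably expressed an shRNA that targets ELK3. Both shRNAs were carried by a retrovirus, the knocked down cells had been selected with puromycin, and the labels number the arrays of each group as biological repeats 1 and 2 (replicates 1 and 2 here). According to the study's methods the parent cells carried GFP and luciferase and several separate control and KD lines were selected, but which line gave which array is not stated. The p-values below therefore measure only the spread between these arrays, and a selected line cannot be told apart from the shRNA it carries.

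Notch receptors are single-pass membrane proteins that are switched on by ligands of the Jagged and Delta-like families on a neighbouring cell. Ligand binding leads to cutting of the receptor by an ADAM protease and then by gamma-secretase, and the freed intracellular domain enters the nucleus, where it joins the DNA-binding protein RBPJ and a Mastermind coactivator to turn on genes of the HES and HEY families. DLL3 is the exception among the ligands, since it does not activate receptors on other cells and is known to hold Notch signalling back within the cell that makes it. In breast epithelium the pathway takes part in the choice between luminal and basal fates, and in breast cancer it has been linked to stem-like growth.

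RBPJ is known to bind DNA at sites built around the letters GTGGGAA. The promoter sequences of 4 target genes with unlike differences are shown. HES4, HEY2 and NRARP, from a list of further target genes, differed by more than 4-fold between the groups, whereas HES1 differed by less than 1.5-fold. HEY1, which differed more than any of these, is not among them. Each sequence is the stretch of 250 bases before the start site in RefSeq on GRCh38.p14, printed 5′ to 3′ in the direction of the gene. GTGGGAA or its reverse complement TTCCCAC is in capitals. HES1 is at chr3:194135898-194136147 on the plus strand, HES4 at chr1:1000098-1000347 on the minus strand, HEY2 at chr6:125749382-125749631 on the plus strand and NRARP at chr9:137302272-137302521 on the minus strand.
HES1: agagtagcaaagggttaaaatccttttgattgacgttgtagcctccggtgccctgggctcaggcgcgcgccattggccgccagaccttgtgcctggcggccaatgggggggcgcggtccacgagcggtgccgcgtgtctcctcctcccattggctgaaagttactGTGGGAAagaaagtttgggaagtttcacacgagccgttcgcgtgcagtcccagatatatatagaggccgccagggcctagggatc
HES4: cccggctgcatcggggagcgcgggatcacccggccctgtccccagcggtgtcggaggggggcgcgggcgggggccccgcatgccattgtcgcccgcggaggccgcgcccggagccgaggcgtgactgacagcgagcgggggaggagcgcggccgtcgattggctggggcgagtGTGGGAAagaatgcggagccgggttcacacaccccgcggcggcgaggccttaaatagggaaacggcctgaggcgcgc
HEY2: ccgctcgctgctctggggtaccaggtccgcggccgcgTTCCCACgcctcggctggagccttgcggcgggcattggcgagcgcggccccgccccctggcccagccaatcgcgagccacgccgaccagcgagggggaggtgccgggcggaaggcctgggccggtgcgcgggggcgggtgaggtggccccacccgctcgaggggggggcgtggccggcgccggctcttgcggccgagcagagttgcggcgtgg
NRARP: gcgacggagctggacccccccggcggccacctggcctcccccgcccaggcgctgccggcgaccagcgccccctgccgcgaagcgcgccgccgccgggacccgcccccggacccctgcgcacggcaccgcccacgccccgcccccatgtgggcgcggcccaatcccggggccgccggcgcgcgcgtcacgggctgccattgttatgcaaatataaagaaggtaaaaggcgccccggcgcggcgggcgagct
The match lay at positions -85 to -79 from the start site in HES1 and at -77 to -71 in HES4, on the strand of the gene in both, and at -213 to -207 on the other strand in HEY2. A second match in HEY2 ran across the start site, and the NRARP window held none. DLL1, DLL3 and HEY1 were not searched, and neither were 3 of the 10 further target genes. The letters were also sought on either strand in windows of 300 bases, which reach 50 bases past the start. They were found in 1 of the 7 windows searched among the 10 genes (14.3%, HES1) and in 6.25% of 35116 windows of all genes. Among further target genes, 4 of 7 windows held them (57.1%), those of HES4, HES5, HEY2 and HEYL. HES5 and HEYL were not called at their brightest probe sets. The ETS core CCGGAAG, searched on both strands in the same windows, was found in 0 of the 7 windows among the 10 genes. It was in 0 of the 7 of further target genes and in 10.3% of all windows. Over 59 windows of the whole list of further pathway genes, the shares were 10.2% for GTGGGAA and 8.47% for CCGGAAG. A match is only a run of letters and not a measured binding site.

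Levels are given as log2 intensities made by the authors with RMA, which subtracts background, equalises the distribution of values over arrays and joins the probes of a set. Array medians were 6.23 in both control arrays and 6.27 in both ELK3 KD arrays. No detection calls were used, so the 95th percentile of 359 probe sets of olfactory receptor genes, 5.70, served as a guide to background, and where a group mean lay below it the size of a difference is limited by background. Of the 34 Notch probe sets, 18 had both group means above that level, 6 had the ELK3 KD mean above it alone, and 10 had both below it. ELK3 itself read 10.85 and 10.82 in control cells and 8.34 and 8.33 in ELK3 KD cells, which is -2.50 on the log2 scale (limma, standard error 0.07, adjusted p = 3.57e-05). The arrays differed widely beyond ELK3: at an adjusted p under 0.05, 49.5% of all genes were called, 26% higher and 23.5% lower. Genes that mark MDA-MB-231 moved too. All 4 of a list of abundant genes of the line (VIM, CD44, CAV1 and ANXA1) were lower in ELK3 KD arrays, the log2 of their summed intensity being 14.69 to 14.71 in control and 12.90 to 12.93 in ELK3 KD arrays, and among 8 markers of HEK293, the kidney line behind many retroviral packaging cells, 5 were higher and 0 lower, the log2 of their summed intensity being 9.65 to 9.79 and 12.39 to 12.46. The 5 higher ones were SOX11 (log2 difference 5.81), DPYSL3 (3.63), CDH2 (3.23), CKB (2.64) and LIN28B (1.27). The other 3 were not called. Of these, PAX2 (means 4.59 and 4.58) and NEFM (3.81 and 3.97) were below the background guide in both groups, and INA read 6.09 and 6.19. CDKN2A, whose locus is known to be deleted in MDA-MB-231, read 4.85 and 11.38. The part of such differences between the cells in the results below was not tested. In RNA from whole cultures, fewer cells that express a gene and less RNA of it per cell cannot be told apart.

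With each gene read from its brightest probe set (the highest mean over the 4 arrays), 4 of the 10 Notch genes were higher in ELK3 KD arrays and 0 were lower at an adjusted p under 0.05 (limma, adjusted over all 18132 genes), beside 26% and 23.5% of all genes. At an unadjusted p under 0.05 the counts were the same, 4 and 0, and by the t-test of the study's methods after Benjamini-Hochberg adjustment they were 2 and 0, beside 14.2% and 11.5% of all genes by that test. The genes called were HEY1, DLL3, JAG2 and HES1. HEY1 and DLL3 were more than 4-fold higher, a size that 3.19% of all genes reached upwards and 2.32% downwards (5.51% in all). The groups did not overlap for 6 of the 10 genes, whereas they did not overlap for 76.2% of all genes. The median log2 difference was 0.25 over the 10 genes and -0.05 over all genes. Counted singly, 9 of the 34 probe sets were higher and 2 lower, beside 24.3% and 24% (48.3% in either direction) of all 49293 probe sets tested. The groups did not overlap for 20 of the 34, beside 75.5% of all probe sets, and 5 were more than 4-fold higher and 0 lower, beside 2.72% and 2.19%. Among probe sets counted singly, the shares of calls were thus near or below those of the whole array, apart from rises past 4-fold in 3 genes. Read by gene, the share called higher, 4 of only 10, was above the 26% of all genes.

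**Figure D1:**
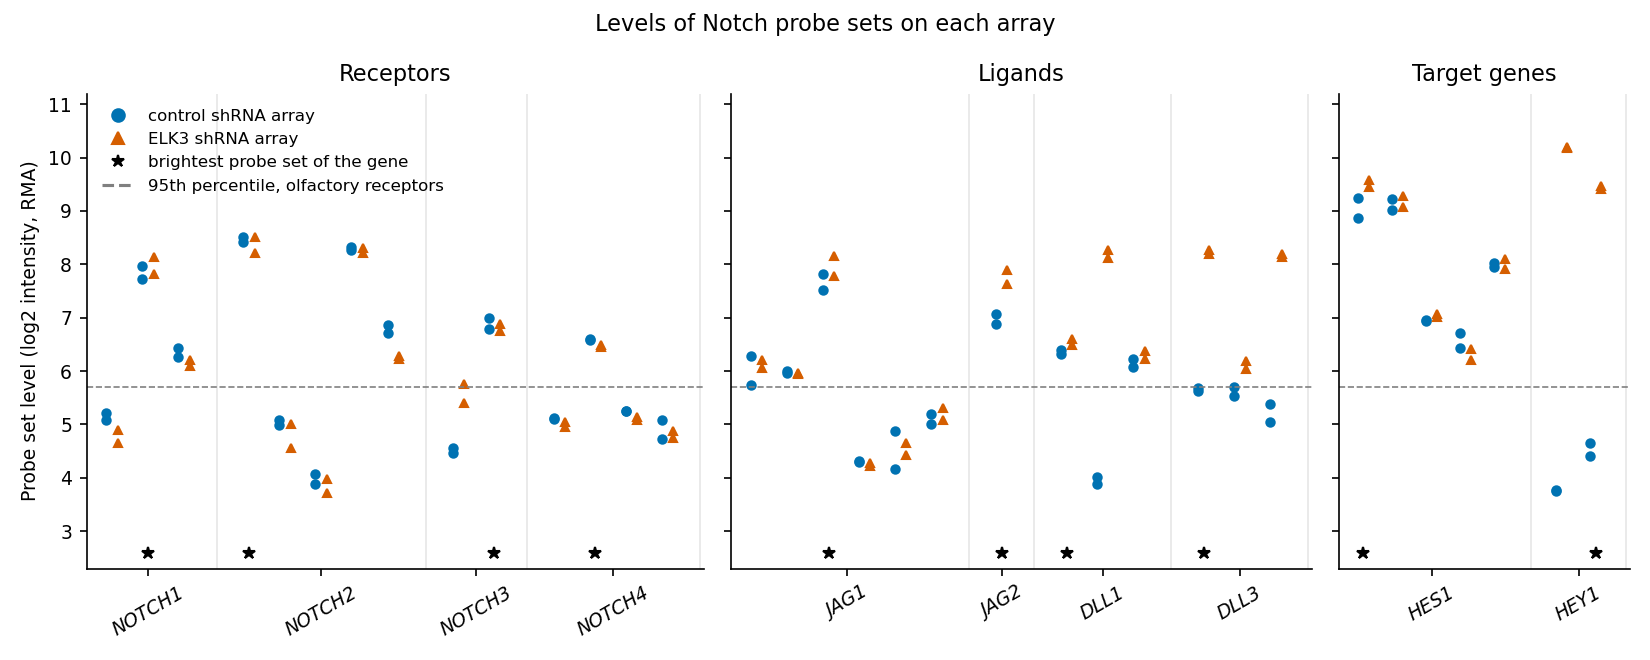
Log2 level of each of the 34 Notch probe sets (columns, grouped by gene) on the 2 control arrays (circles) and the 2 ELK3 KD arrays (triangles), with the brightest probe set of each gene starred and the olfactory receptor guide of 5.70 dashed. Both HEY1 probe sets and 1 of 3 DLL1 probe sets go from below 5 in control to above 8 in ELK3 KD arrays, while 13 of the 14 receptor probe sets, all but 1 of NOTCH3, lie within 0.53 of their control means.

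No receptor was called at its brightest probe set. At the brightest probe set, NOTCH1 read 7.72 and 7.96 in control cells and 8.13 and 7.82 in ELK3 KD cells, with overlapping groups, a log2 difference of 0.13 with a 95% confidence interval of -0.24 to 0.50 (adjusted p = 0.496). NOTCH2 read 8.41 and 8.51 against 8.51 and 8.21, a difference of -0.10 (interval -0.42 to 0.22). NOTCH3 read 7.00 and 6.79 against 6.75 and 6.89, a difference of -0.07 (interval -0.35 to 0.20). For these 3 receptors the ELK3 KD values lay among or next to the control values, and none of the intervals reached a change of 1.5-fold. NOTCH4, a receptor best known from endothelium, read 6.60 and 6.59 against 6.48 and 6.45, so that both ELK3 KD arrays were below both control arrays, by 0.13 (interval -0.32 to 0.05, adjusted p = 0.183).

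Single probe sets of the receptors did pass the test. Of the 14, 1 was higher, 2 were lower and 11 were not called, beside 24.3% higher and 24% lower among all probe sets. The higher one belonged to NOTCH3 and read 4.47 and 4.55 in control cells and 5.75 and 5.41 in ELK3 KD cells, a log2 difference of 1.07 (standard error 0.13, adjusted p = 0.00221), with both means below the background guide, while the brighter NOTCH3 probe set had its 4 values between 6.75 and 7.00. With the mean of both probe sets NOTCH3 was called higher, at 0.50 (adjusted p = 0.00322), so its direction depends on which probe set is read. The lower ones were 1 of 5 of NOTCH2, which read 6.86 and 6.71 against 6.23 and 6.28 (-0.53, adjusted p = 0.00696), and 1 of 3 of NOTCH1, which read 5.22 and 5.09 against 4.65 and 4.90 (-0.38, adjusted p = 0.0452). With the methods' t-test none of these 3 was called (adjusted p = 0.0752, 0.0701 and 0.199). The NOTCH1 call ended when any 1 array was left out (adjusted p from 0.0628 to 0.221), and the NOTCH2 call ended without ELK3 KD replicate 1 or 2 (adjusted p = 0.0694 and 0.0561). All 4 NOTCH4 probe sets were within -0.14 to -0.10, and none was called.

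At the brightest probe sets, 1 Jagged gene (JAG2) and 1 Delta-like gene (DLL3) were called higher and JAG1 and DLL1 were not called. JAG1, the ligand whose loss causes Alagille syndrome, has 6 probe sets and none of them was called. Its brightest read 7.52 and 7.81 in control cells and 8.16 and 7.79 in ELK3 KD cells, a difference of 0.31 (interval -0.11 to 0.73, adjusted p = 0.182), with overlapping groups, and the other 5 lay between -0.04 and 0.12. JAG2, read from a single probe set, was at 7.07 and 6.89 against 7.64 and 7.90, with both ELK3 KD arrays above both control arrays. Its log2 difference was 0.79 (standard error 0.12, 1.73-fold, adjusted p = 0.00514). The call of JAG2 ended with the methods' t-test (adjusted p = 0.0937).

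DLL1, a ligand that activates Notch on neighbouring cells, gave different answers at its 3 probe sets. The dimmest in control cells read 4.02 and 3.88 there and 8.11 and 8.26 in ELK3 KD arrays, a log2 difference of 4.23 (standard error 0.10, adjusted p = 2.6e-05, adjusted over all probe sets). The brightest by mean read 6.39 and 6.31 against 6.60 and 6.48 (0.19, interval -0.03 to 0.41, adjusted p = 0.123), and the last read 6.08 and 6.22 against 6.22 and 6.38. Thus 1 probe set changed 18.8-fold and the other 2 were not called, and the call of the gene turns on how probe sets are joined: the brightest probe set gave no call, whereas the mean of all 3 gave a log2 difference of 1.52 (adjusted p = 4.56e-05). The control mean of the probe set that rose lay below the background guide, which limits the size of its difference.

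DLL3 was higher at all 3 of its probe sets. The brightest read 5.62 and 5.69 in control cells and 8.19 and 8.26 in ELK3 KD cells, a log2 difference of 2.57 (standard error 0.08, 5.94-fold, adjusted p = 4.03e-05). Another read 5.05 and 5.38 against 8.19 and 8.13, a difference of 2.94 (adjusted p = 0.000106). The last read 5.70 and 5.54 against 6.03 and 6.18, a smaller difference of 0.49 (adjusted p = 0.0141), and this call was lost when control replicate 2 or either ELK3 KD replicate was left out (adjusted p = 0.0582, 0.0603 and 0.107) and with the methods' t-test (adjusted p = 0.111). The control means of all 3 lay below the background guide and the ELK3 KD means above it. With the brightest probe set, DLL3 stood at rank 356 of 18132 among rises.

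**Figure D2:**
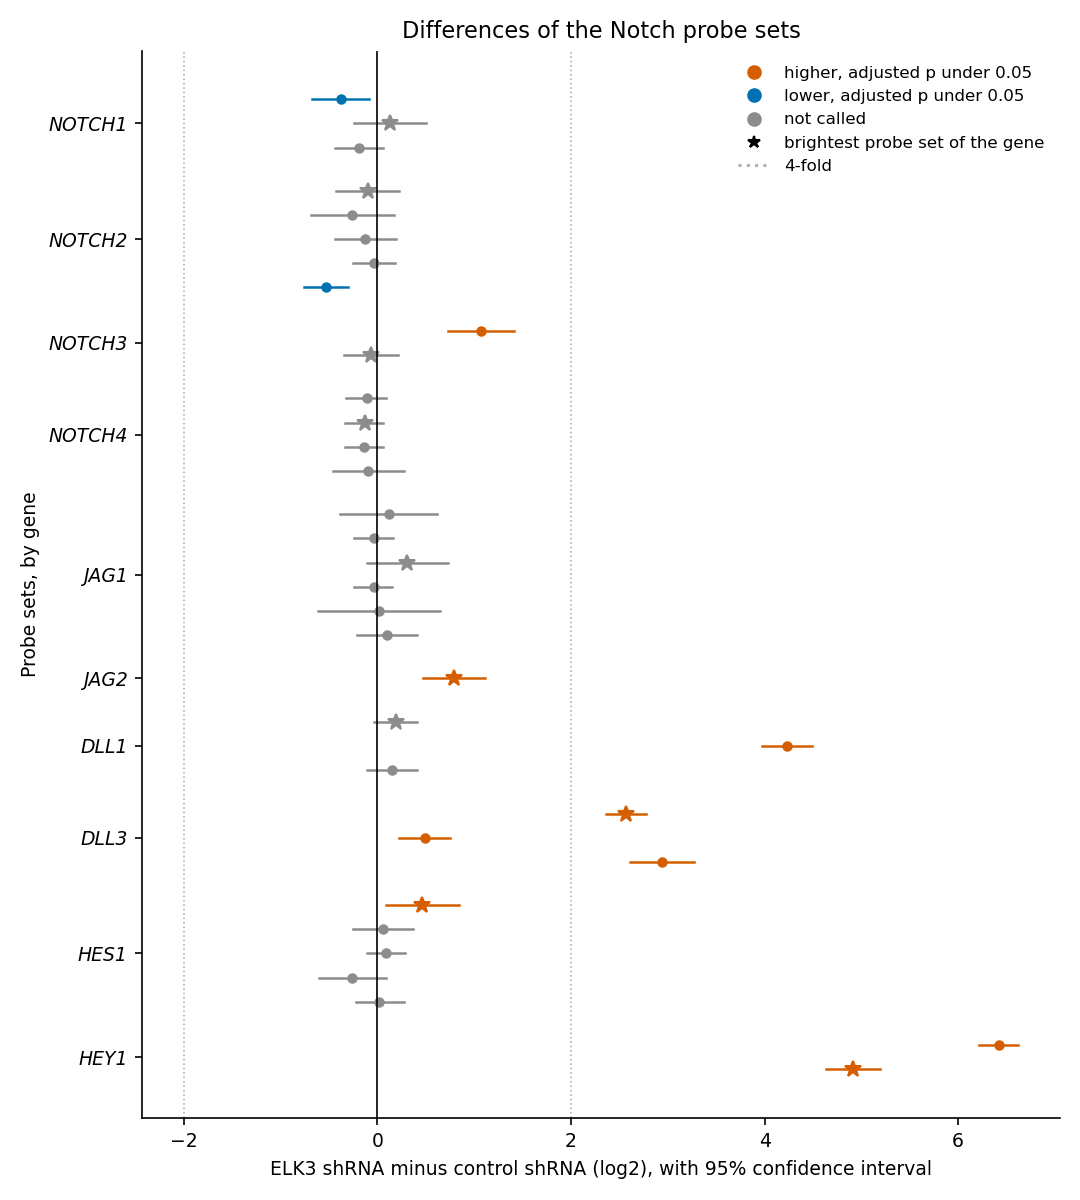
Log2 difference of ELK3 KD minus control arrays for each Notch probe set with its 95% confidence interval from limma, colored by the call at an adjusted p under 0.05, with the brightest probe set of each gene starred and 4-fold dotted. The 5 probe sets beyond 4-fold belong to DLL1, DLL3 and HEY1, from 2.57 to 6.42, and the 14 receptor probe sets lie between -0.53 and 1.07.

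The target genes also parted. HEY1, a basic helix-loop-helix repressor that Notch turns on directly, showed the largest difference among the 10 genes. Its brightest probe set read 4.65 and 4.41 in control cells and 9.47 and 9.42 in ELK3 KD cells, a log2 difference of 4.91 (standard error 0.10, 30.1-fold, adjusted p = 2.3e-05), at rank 52 of 18132 among rises. The other read 3.78 and 3.75 against 10.18 and 10.20, a difference of 6.42 (standard error 0.08, adjusted p = 1.84e-05). In both, the control arrays lay within the range of olfactory receptor probe sets, so the sizes are limited by background. The difference of HEY1 ran from 4.80 to 5.67 over the 12 alternatives tried and passed the test in each. Among these, the filter on the mean level over all arrays is no check, since HEY1 passed it only through the ELK3 KD arrays.

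HES1, the best known direct target of Notch and a repressor of differentiation genes, was read by 5 probe sets. The brightest was at 9.24 and 8.86 in control cells and 9.57 and 9.45 in ELK3 KD cells, so the groups did not overlap, and the log2 difference was 0.46 (standard error 0.14, adjusted p = 0.0486). This call lay at the threshold. It ended without control replicate 2 (0.27, adjusted p = 0.0883), without ELK3 KD replicate 1 (0.41, adjusted p = 0.226) and without ELK3 KD replicate 2 (0.52, adjusted p = 0.147) and with the methods' t-test (adjusted p = 0.233), and the mean of all 5 probe sets gave 0.08 (adjusted p = 0.554). The next brightest probe set read 9.22 and 9.01 against 9.28 and 9.07, with overlapping groups, and the other 4 probe sets together ran from -0.26 to 0.09. The interval of 0.09 to 0.84 at the brightest probe set lies below the whole interval of HEY1, 4.65 to 5.18.

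**Figure D3:**
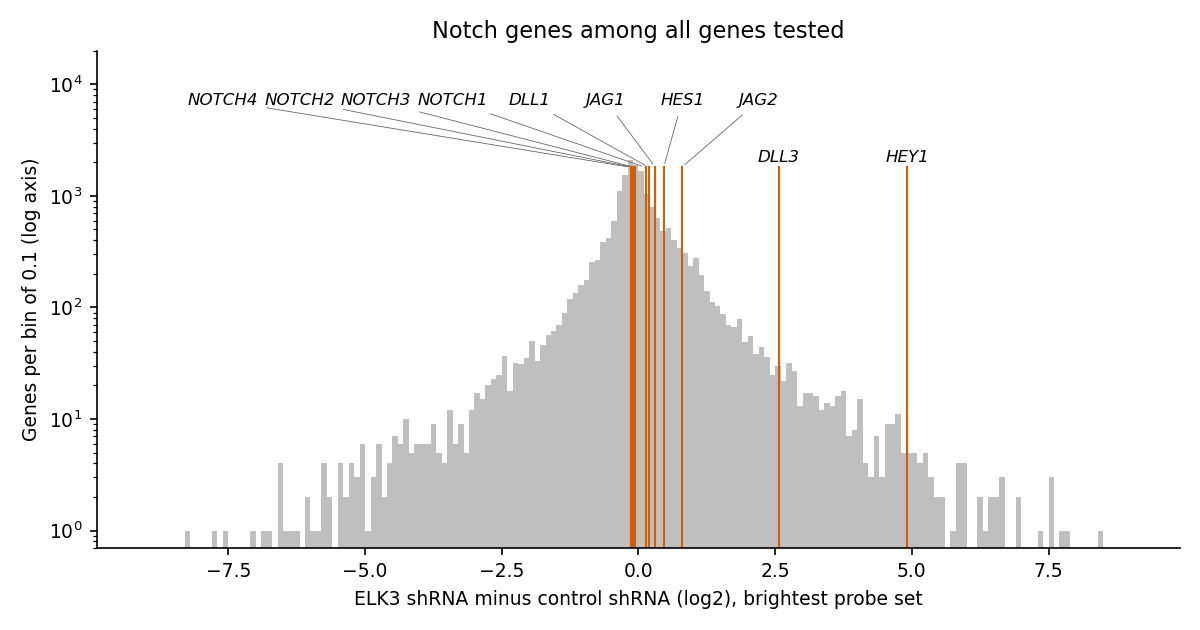
Distribution of the log2 difference of ELK3 KD minus control arrays over all 18132 genes in bins of 0.1 (gray, log axis), with the 10 Notch genes marked at their brightest probe set. The 4 receptors, DLL1, JAG1, HES1 and JAG2 lie within -0.13 to 0.79, and DLL3 and HEY1 stand apart at 2.57 and 4.91.

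Other genes of the pathway were read from a list of 49 measured genes grouped by role, of which 11 were higher, 18 lower and 20 not called (brightest probe sets, limma over all genes), beside 26% and 23.5% of all genes. The median log2 difference of the list was -0.09. Without ELK3 KD replicate 1 the list gave 7 higher and 11 lower (17% and 13.4% of all genes), and without ELK3 KD replicate 2 it gave 8 and 12 (17.5% and 13.7%). With the methods' t-test it gave 9 and 9, beside 14.2% and 11.5% of all genes, and of the genes named below FURIN (adjusted p = 0.0809), NEURL1B (0.157), NCSTN (0.149), PSENEN (0.166), MAML2 (0.059), KAT2B (0.107), DTX2 (0.0541) and MYC (0.0785) were then not called.

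Further target genes held the largest differences. Of 10, 3 were higher, 2 lower and 5 not called, beside 26% higher and 23.5% lower among all genes. The 3 that were higher all passed 4-fold, so 3 of the 10 did, beside 3.19% of all genes upwards. NRARP, a direct Notch target whose product feeds back to dampen the RBPJ complex, read 6.95 and 7.30 in control cells and 11.60 and 11.25 in ELK3 KD cells. This was a log2 difference of 4.30 (standard error 0.17, 19.8-fold, adjusted p = 8.02e-05), from a control level above the background guide. Its other probe set gave 5.44, from a control mean of 5.55, below the guide. HES4, a repressor of the same family as HES1, read 7.92 and 7.79 against 10.69 and 10.62, a difference of 2.80 (adjusted p = 4.14e-05). HEY2, a close relative of HEY1 with a role in heart and vessels, read 4.30 and 4.84 against 7.07 and 7.19, a difference of 2.56 (adjusted p = 0.000444), and its other 2 probe sets gave 2.73 and 2.51. These targets and HEY1 had no overlap between groups at any of these probe sets, which also held for 75.5% of all probe sets. HEYL, the remaining HEY gene, was not called at its brightest probe set, where it read 7.48 and 7.32 against 7.28 and 7.35. Its other 3 probe sets were called higher, by 0.37 to 2.50, from control means below the background guide. The mean of all 4 HEYL probe sets gave 1.01 (adjusted p = 0.0012). HES5, a Notch target of the nervous system, was at 4.95 and 4.92 against 5.01 and 5.07, below the background guide in all arrays. The 2 target genes that were lower were the growth genes CCND1 and MYC, which many other signals control. CCND1 read 10.90 and 11.25 against 9.06 and 9.20 (-1.95, adjusted p = 0.000399), with all 4 of its probe sets lower, from -2.27 to -1.95. MYC changed by -0.54 (adjusted p = 0.0069), a call that ended without ELK3 KD replicate 1 (-0.49).

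Of 7 measured genes that cut the receptor, 4 were lower, 2 were higher and 1 was not called, beside 23.5% and 26% of all genes. ADAM10, the protease that makes the first cut after ligand binding, read 8.37 and 8.38 in control cells and 6.78 and 6.93 in ELK3 KD cells, a log2 difference of -1.52 (standard error 0.09, adjusted p = 0.000202), and each of 4 probe sets fell, the differences running from -2.30 to -1.52. Its relative ADAM17 read 9.14 and 9.11 against 8.06 and 7.85 (-1.17, adjusted p = 0.000612). PSEN2, a catalytic subunit of gamma-secretase, read 8.69 and 8.73 against 7.84 and 7.87 (-0.86, adjusted p = 0.000641), with all 6 of its probe sets lower. For each of these 3 genes both ELK3 KD arrays lay below both control arrays, while the groups also did not overlap for 76.2% of all genes. The remaining lower gene was NCSTN, the gamma-secretase subunit that receives substrates (-0.40, adjusted p = 0.0272), which was no longer called when control replicate 1, ELK3 KD replicate 1 or ELK3 KD replicate 2 was left out (adjusted p = 0.103, 0.0748 and 0.16). The higher ones were subunits of gamma-secretase as well. APH1A, which helps to assemble it, read 9.58 and 9.54 against 10.10 and 10.02 (0.50, adjusted p = 0.00455) with all 7 of its probe sets called higher, by 0.27 to 0.50, although the call of the gene was lost without ELK3 KD replicate 1 (adjusted p = 0.0523). PSENEN read 9.20 and 8.99 against 9.41 and 9.45 (0.33, adjusted p = 0.0415), and its call was lost after centring again (adjusted p = 0.0566), under the replicate block (0.0708) and without control replicate 2 or either ELK3 KD replicate (0.0846, 0.158 and 0.192).

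Genes that mature the receptor in the secretory pathway gave 4 of 6 lower and 0 higher, beside 23.5% and 26% of all genes. The convertase FURIN, which cuts the receptor on its way to the surface, read 7.85 and 7.50 against 6.71 and 6.62 (-1.01, adjusted p = 0.00295), the sugar transferase LFNG, which tunes the response to Delta-like and Jagged ligands, changed by -0.56 (adjusted p = 0.00279) and the fucosyltransferase POFUT1 by -0.36 (adjusted p = 0.0121). The POFUT1 call ended without ELK3 KD replicate 1 (-0.34) or 2 (-0.38). Its probe sets differed in size: another read 8.44 and 8.54 against 7.09 and 7.09 (-1.40, limma over all probe sets, adjusted p = 0.000232). The mean of the POFUT1 probe sets gave -0.70 (limma, adjusted p = 0.000673). Among other ligands, DLK2, a non-canonical ligand, read 8.26 and 8.06 against 7.11 and 7.05 (-1.08, adjusted p = 0.000806), and DLL4, the Delta-like ligand of vessels, read 5.39 and 4.87 against 5.21 and 5.06, below the background guide. Of 4 ubiquitin ligases that drive endocytosis of ligands, 1 was lower and 0 higher, beside 23.5% and 26% of all genes. The lower one was NEURL1B (-0.47, adjusted p = 0.0238), a call that ended without ELK3 KD replicate 1 (-0.44) or 2 (-0.5). MIB1, the ligase that acts on Delta-like and Jagged ligands alike, read 9.66 and 9.68 against 10.03 and 9.84 (0.27, adjusted p = 0.069), and it was called higher among genes above the median level (adjusted p = 0.037), after quantile normalization again (0.04) and with a trended and robust prior (0.0271). NEURL1 differed by -0.09.

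In the nucleus, RBPJ read 10.42 and 10.36 in control cells and 10.23 and 10.14 in ELK3 KD cells, a difference of -0.20 (interval -0.40 to 0.00, adjusted p = 0.0882), so a fall of more than 1.5-fold lies outside the interval at that probe set. All 6 RBPJ probe sets had negative differences, from -0.51 to -0.18, and 2 of them were called lower. The gene was called lower with the mean of its probe sets (-0.29, adjusted p = 0.032), among genes above the median level (adjusted p = 0.0435) and with a trended and robust prior (adjusted p = 0.0262). Of the 7 genes of the nuclear complex, 2 were higher and 2 lower, beside 26% and 23.5% of all genes. The histone acetyltransferases EP300 and KAT2B, which the Notch complex recruits, changed by 1.19 (adjusted p = 0.000289) and 0.39 (adjusted p = 0.0189), the latter a call that ended without either ELK3 KD replicate (adjusted p = 0.104 and 0.119). The coactivator MAML2 read 8.72 and 8.55 against 7.45 and 7.12 (-1.35, adjusted p = 0.00117). MAML3 was not called at its brightest probe set (0.05), whereas 1 of its 4 probe sets went from a mean of 3.82, below the background guide, to 6.96. Of 4 corepressors, 2 were higher and 0 lower, beside the same shares of all genes, 26% and 23.5%. SPEN, which binds RBPJ and holds target genes off, read 7.76 and 8.07 against 10.48 and 10.28, a log2 difference of 2.47 (standard error 0.14, adjusted p = 0.000201), with all 3 probe sets between 2.47 and 2.54, and the deacetylase HDAC1 changed by 1.36 (adjusted p = 0.000221).

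Genes of receptor turnover moved in both directions, with 2 of 8 higher and 4 lower, beside 26% and 23.5% of all genes. NUMB, an inhibitor that sends the receptor to degradation, read 6.31 and 6.38 in control cells and 4.89 and 4.59 in ELK3 KD cells (-1.61, adjusted p = 0.000454). Its ELK3 KD mean lay below the background guide, which limits the size. The ubiquitin ligase DTX2 changed by -1.03 (adjusted p = 0.00132). FBXW7, which marks the freed intracellular domain for degradation, read 7.42 and 7.63 against 8.57 and 8.50 (1.01, adjusted p = 0.00104), with all 3 of its probe sets between 1.01 and 1.03.

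**Figure D4:**
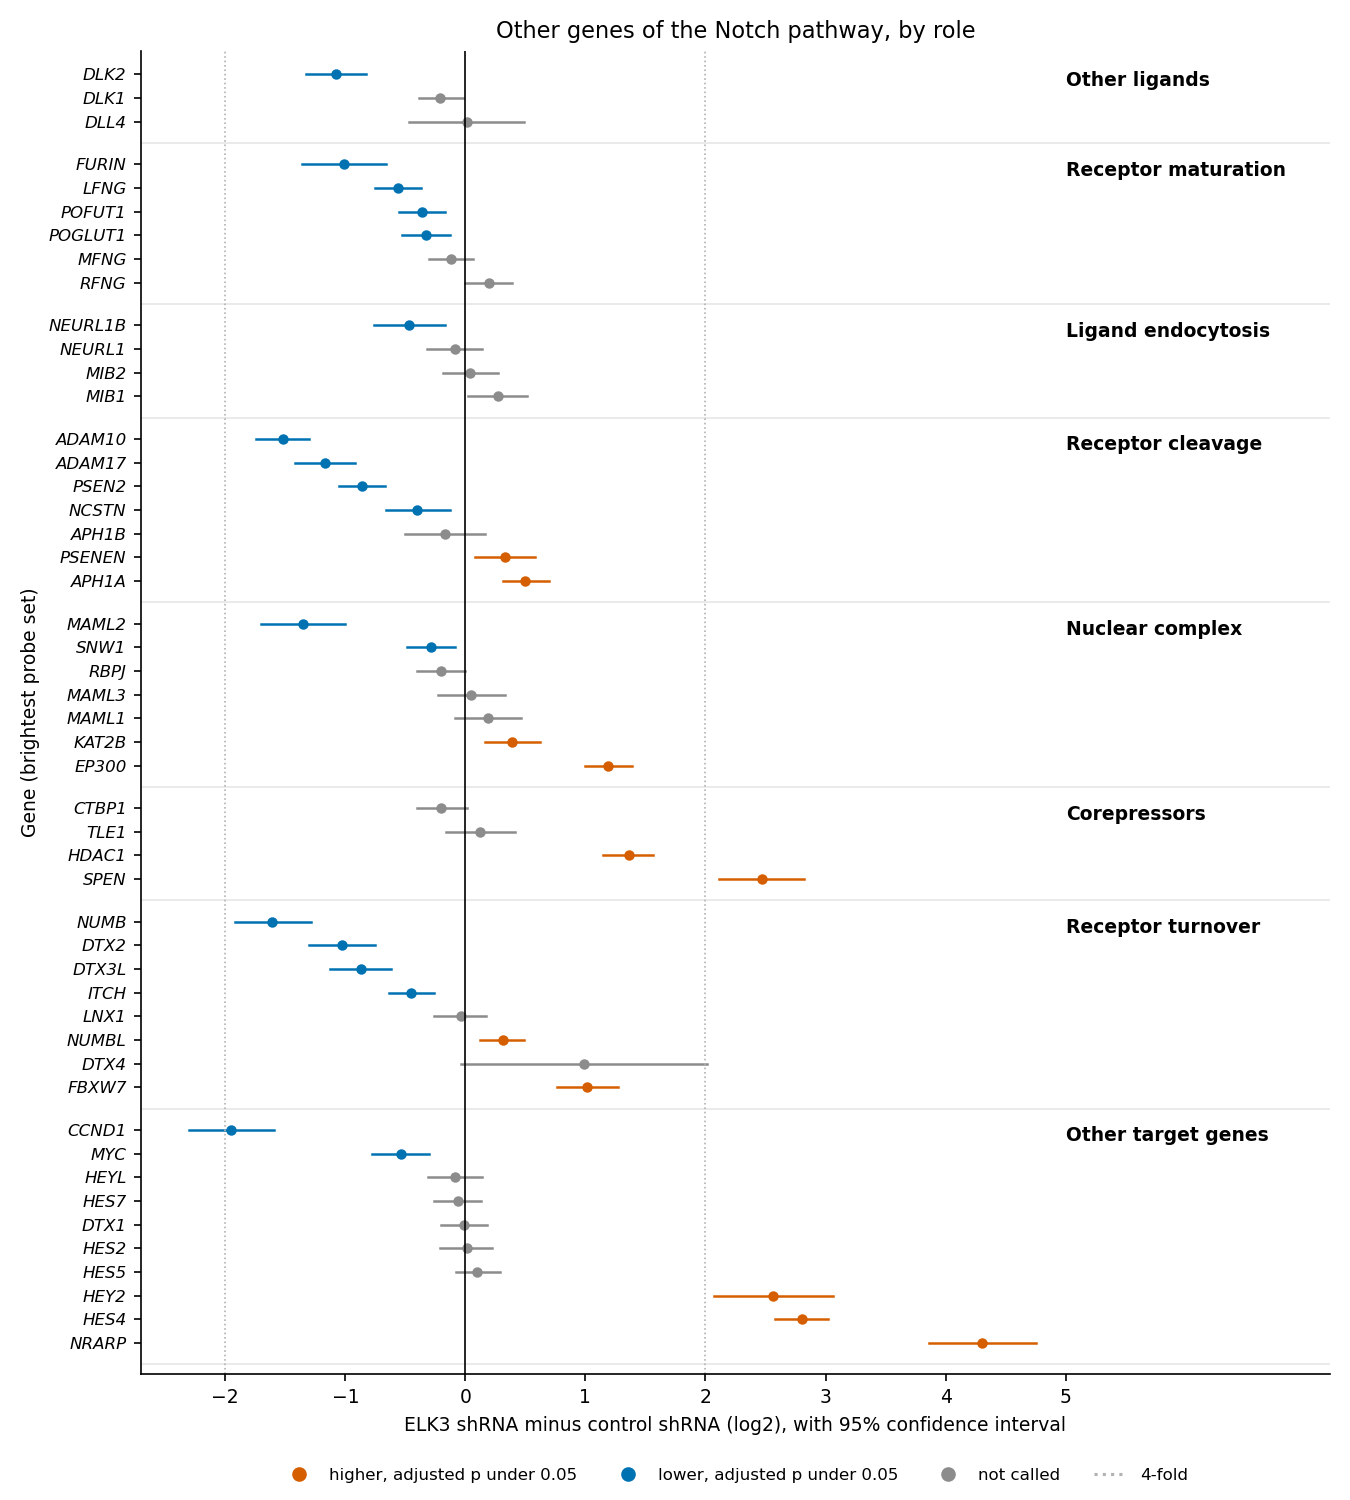
Log2 difference of ELK3 KD minus control arrays, with its 95% confidence interval from limma, for 49 further genes of the Notch pathway at their brightest probe set, grouped by role and colored by the call at an adjusted p under 0.05, with 4-fold dotted. NRARP, HES4, HEY2 and SPEN lie beyond 4-fold on the higher side and none lies beyond it on the lower side, where CCND1 reaches -1.95. This depends on the probe set read: the mean of probe sets gave -2.12 for CCND1 and -2.02 for ADAM10.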

How the data were processed

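Gene expression was measured on 4 arrays of total RNA, 2 of control and 2 of ELK3 KD MDA-MB-231 cells, grouped by their titles. The table the authors deposited holds log2 values for 49395 probe sets. The submitters' processing notes name RMA and Affymetrix Expression Console, without a version. An Illumina BeadChip is named in the study's methods, but the identifiers in the table follow the Affymetrix pattern. RMA compresses low values and equalises the arrays, so dim differences can be understated and the values cannot show a change in the RNA content of the cells. Scanner files were not used here, and the precision is limited by the number of arrays: an exact permutation test of 2 against 2 cannot give a two-sided p below 0.33.

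Gene names came from the array's platform annotation, and symbols were brought up to date in RefSeq (GRCh38.p14) (44961 of 44988 probe sets naming 1 gene matched). Another 1832 named several genes, 2473 none and 102 were controls. Differences between the groups came from lmFit and eBayes of limma 3.58.1 (R 4.3.3), without a block or a filter on dim genes, and Benjamini-Hochberg adjustment at 0.05, over 18132 genes read from the brightest probe set, and over 49293 probe sets singly where a probe set other than the brightest is given. Past 4-fold means a log2 difference of group means beyond 2. The fits were also run on simulated arrays with independent noise and 200 changed genes. That setting is unlike the data, in which 49.5% of genes were called, so it lends no support to the calls here. Figures were drawn with matplotlib 3.10.9. Alternatives were other summaries of probe sets, a filter on dim genes, centring or quantile normalization again, another variance prior, the methods' t-test, a replicate block and each array left out.

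The 10 genes, the lists and the tests were chosen with earlier results of these data known. All 10 genes and all their probe sets are reported. Of each further list, up to 3 called genes with the largest change were named or, where fewer than 2 were called, up to 2 with the highest mean. HEYL, HES5, CCND1, MYC, NEURL1B, NCSTN, APH1A, PSENEN, RBPJ and MAML3 were named after their values were seen. Of 52 further pathway genes, 3 without a probe set of their own were not analysed here.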

Additional observations from a re-analysis of the deposited data

How the results depend on the processing

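HEY1 and DLL3 kept their direction and their call under all 12 alternatives, and ELK3 did so as well, at -2.82 to -2.49. For HEY1 and DLL3 the filter on dim genes is no check, since it uses the mean over all arrays. Both genes passed it only through the ELK3 KD arrays, where they are high. Of 4 Notch genes called higher, 2 were called with the methods' t-test, and 3 or 4 when 1 array was left out, with 0 lower in each. Of 9 Notch probe sets higher, 5 were called with the methods' t-test and 7 to 9 when 1 array was left out. Of 2 lower, 1 was called above the median level, 1 with a trended and robust prior, 1 under the replicate block and 0 with the methods' t-test, and 0 or 1 when 1 array was left out. In the further pathway list, 7 to 12 were higher and 11 to 17 lower when 1 array was left out, and 9 were lower with the methods' t-test. Past 4-fold were 2 Notch genes, 1 with the mean of probe sets (DLL3 then read 2.00) and 5 probe sets counted singly. With the mean of probe sets, NOTCH3 turned to 0.50, HEYL to 1.01 and NUMBL from 0.31 to -0.04 (adjusted p = 0.684). Centring again ended the call of HES1 (0.42, adjusted p = 0.058). Over all genes, the deviations of equally numbered arrays were hardly correlated (0.011), which cannot tell whether the arrays were handled in pairs. The replicate block gave 4 Notch genes higher, and 10 and 17 further pathway genes higher and lower, beside 24% and 20.9% of all genes. It gave 9 Notch probe sets higher, without a share of all probe sets for that setting. In the 250 bases before the start site alone, GTGGGAA was found in 14.3% of the 7 windows of the Notch genes, 57.1% of those of further targets and 5.43% of all windows. The causes of these changes were not tested. Values below the guide of 5.70 limit the sizes wherever a group mean lies under it, as for HEY1, DLL1, DLL3, HEY2 and NUMB. The same holds for the dimmer NRARP probe set, the HEYL probe sets called higher and the MAML3 probe set that rose.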

Other observations

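4 probe sets name NOTCH2 together with its human-specific partial copies (NOTCH2NLA, NOTCH2NLB and others) and NBPF genes, and were kept apart from the 10 genes. Their log2 differences were -0.05, 0.25, 0.21 and 0.28. The last read 8.38 and 8.26 in control cells and 8.62 and 8.59 in ELK3 KD cells (limma over all probe sets, adjusted p = 0.044), and the one with 0.25 read 8.86 and 8.74 against 9.08 and 9.02 (adjusted p = 0.0648). Which of the genes such a probe set reads cannot be told.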
